A study of Mus musculus with 31 samples.

Results

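Skeletal muscle fibers are slow or fast, and each kind builds its contractile filaments from its own versions of myosin heavy chain and troponin. The genes described here are 10 adult fiber-type genes of these families, of 54532 genes in the count table. They were taken as a named list that uses no measured value in its rule, though earlier results of these data were known, and symbols were matched to Ensembl genes through the GENCODE vM21 mouse annotation. The 4 slow-fiber genes were Myh7, Tnni1, Tnnt1 and Tnnc1. The 6 fast-fiber genes were Myh2, Myh1, Myh4, Tnni2, Tnnt3 and Tnnc2.

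Myosin heavy chain is the motor that pulls on actin, and the version a fiber makes sets how fast it shortens, from Myh7 in slow oxidative fibers through Myh2 and Myh1 to Myh4 in the fastest glycolytic fibers. Troponin is the calcium switch of the thin filament, in which troponin C binds calcium, troponin I blocks myosin at rest and troponin T anchors the complex to tropomyosin. The mouse soleus is rich in slow fibers, while the gastrocnemius is made mostly of fast ones, and ERRα, an orphan nuclear receptor encoded by Esrra, is known in muscle as a regulator of genes of oxidative metabolism.

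The study changed 3 serines of ERRα to alanine by CRISPR editing (ERRα3SA), on the C57BL/6N strain, and asked what the altered receptor does to gene expression in liver and muscle. Skeletal muscle (gastrocnemius and soleus) and liver were sequenced from homozygous WT and homozygous ERRα3SA littermates, 4 samples for each tissue and genotype, from males 2 to 3 months old on a normal diet. A separate experiment sequenced livers of WT and ERRα-/- mice of the same strain, fasted for 12 h and injected with saline (4 of each genotype) or with insulin at 1 unit/kg (4 WT and 3 ERRα-/-). Samples are named here by group and replicate number, as in ERRα3SA muscle 1. The numbers are those of the count table's columns, and the ERRα3SA muscle columns were matched to the sample titles by group and number alone. Each sample is a different mouse of its group, so the p-values measure the spread between these mice.

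Read counts per sample summed to between 22241960 and 28835765 in muscle, between 20481405 and 33412022 in the livers of the ERRα3SA experiment and between 35871419 and 48317108 in the livers of the insulin experiment. Levels within muscle are a gene's reads per size of the library (CPM), after TMM scaling, which lines up the bulk of the genes between libraries. Levels compared between genes are CPM per library total and per kilobase of the gene's longest transcript. The muscles carried the markers of their label. All 8 of 8 skeletal muscle markers were counted in every muscle, the most abundant being the actin gene Acta1 at 24454 to 30411 CPM. The 8 hepatocyte markers, led by Alb with 2 to 6 of them at 0 counts, summed to 0.237 to 1.49 CPM per library total in the muscles, and to 65179 to 104406 CPM in the livers, where none was at 0.

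A pair of ERRα3SA muscles stood apart from the other muscles in library measures. ERRα3SA muscle 1 had 19.32% of its counts on the mitochondrial genome's genes (95% Wilson interval 19.30 to 19.33%, counting error only), against 9.15 to 10.8% in the other 7 muscles. Its TMM factor was 0.754, against 1.01 to 1.14 in the others. The 10 members took 13.3% of its counts, against 6.93 to 9.05% elsewhere. ERRα3SA muscle 4 was apart in other genes. Its 6 macrophage markers summed to 249.8 CPM per library total, against 58.9 to 85.5 CPM in the other 7 muscles. Its 8 tendon and fibroblast markers summed to 4840.0 CPM, against 1672 to 2881 CPM. Results that rest on either muscle are given with and without it. The plot of these library measures shows both muscles beyond the range of all others.

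**Figure D1:**
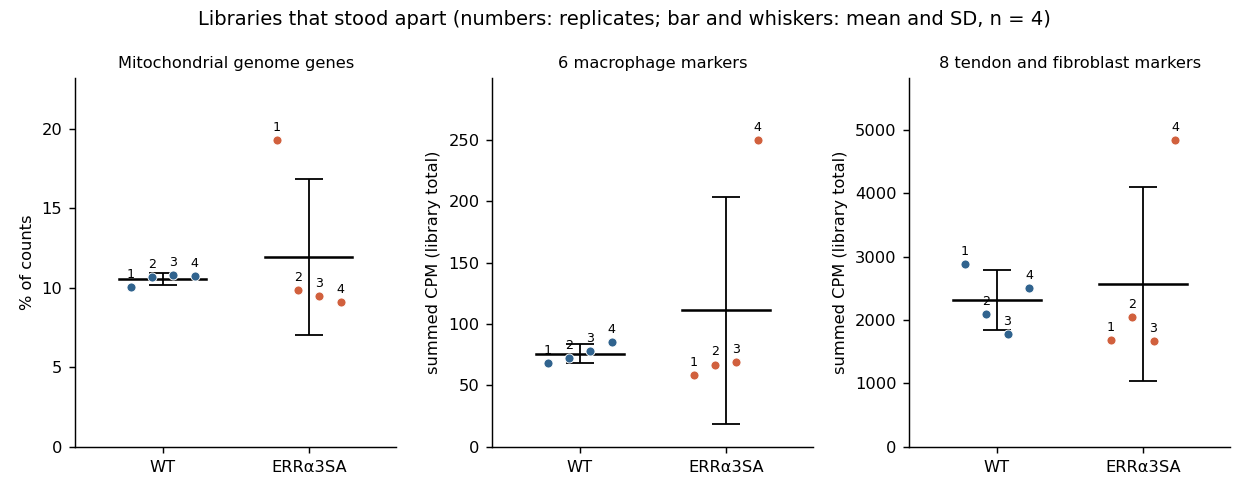
Percent of counts on mitochondrial genes and summed CPM per library total of macrophage markers and of tendon and fibroblast markers in each muscle (points, numbered by replicate; bar and whiskers, mean and SD, n = 4). ERRα3SA muscle 1 sits at 19.3% mitochondrial counts and ERRα3SA muscle 4 at 249.8 CPM of macrophage markers, each apart from the other 7 muscles.

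In WT muscle the fast genes dominated. On the per-kilobase scale, the fast troponin T gene Tnnt3 was the most abundant member at 15007 ± 967 CPM per kb (mean ± SD, n = 4). Myh4, the fastest myosin, followed at 8715 ± 698, and the fast troponin I gene Tnni2 at 6866 ± 346. The ranges of these 3 over the WT muscles did not overlap. Myh1 at 602 ± 42.2 and Myh2 at 512 ± 56.8 came next and overlapped each other. The slow members lay lower on this scale, with Tnnc1 at 282 ± 28.1 and Tnnt1 at 280.1 ± 36.2, which overlapped. Myh7 stood at 154 ± 4.11 and Tnni1 at 76.6 ± 5.80 CPM per kb, each apart from its neighbors in the order. Tnnc2, the fast troponin C gene, was last at 1.02 ± 0.524 CPM per kb, below every slow member. It had only 6 to 28 counts in the WT muscles. Exons of Ube2c, on the opposite strand, cover 74% of its exon bases, and the part of this overlap in its low level was not tested.

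The comparison of ERRα3SA with WT muscle asked which of these genes differed with the genotype. In all 8 muscles, Tnni1 was lower in ERRα3SA muscle (-0.50 ± 0.18, log2 fold change ± standard error) and Tnnc2 was higher (1.21 ± 0.46). The Tnnc2 value rests on 6 to 28 counts in each WT muscle and 13 to 67 in each ERRα3SA muscle. Without ERRα3SA muscle 1, the slow genes Myh7 (-0.48 ± 0.14), Tnni1 (-0.37 ± 0.15) and Tnnc1 (-0.56 ± 0.13) were all lower. The abundant fast genes Myh1, Myh2, Myh4, Tnni2 and Tnnt3 passed the test in neither set of muscles.

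A gene was called when its unadjusted p was under 0.05 and its fold change at least 1.2 in either direction, the thresholds of the study's methods. All 10 members passed the filter on low counts. With all 8 muscles, 2 of 10 members were called, Tnni1 lower and Tnnc2 higher, where 4.54% of 14081 genes were called. By adjusted p under 0.05 (quasi-likelihood test of edgeR, Benjamini-Hochberg), 0 of 10 members and 0% of 14081 genes passed. At unadjusted p under 0.05, edgeR gave 672 genes and DESeq2 826, with 2 members, Tnni1 and Tnnc2, among them in both. At adjusted p under 0.05, DESeq2 gave 56 genes, 0 of them members. Without ERRα3SA muscle 1, 4 of 10 members were called, where 17.4% of 14363 genes were. By the same adjusted p of edgeR, 0 members then passed, where 3.23% of genes did. At unadjusted p under 0.05, 4 of 10 members passed, where 3381 of 14363 genes did. DESeq2 on the same 7 muscles passed 3 of 10 members at adjusted p under 0.05, Tnnc1, Myh7 and Tnnc2, where 8.72% of genes passed.

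The member count moved with single muscles. It was 0 without WT muscle 2, where 3.12% of 14342 genes were called, and 0 without ERRα3SA muscle 2, where 4.73% of 14293 were. It was 1 without WT muscle 3, where 2.64% of 14309 genes were called, and 1 without ERRα3SA muscle 3, where 5.01% of 14300 were. Without ERRα3SA muscle 4 it was 3, where 4.73% of 14235 genes were called. Without ERRα3SA muscles 1 and 4 together, a setting chosen after the data were seen, 4 of 10 members were called, where 17.8% of 14586 genes were. In that setting the adjusted p of edgeR was under 0.05 for 5 of 10 members, where it was for 10.3% of genes. By groups that did not overlap, 0 of 10 members were separated in all 8 muscles, where 4.3% of genes were, and 3 of 10 without ERRα3SA muscle 1, where 22.5% were. Those 3 were Myh7 and Tnnc1, lower, and Tnnc2, higher. The plot of fold changes sets the 3 versions side by side. In bulk tissue, fewer fibers of a type and less of its RNA per fiber cannot be told apart.

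**Figure D2:**
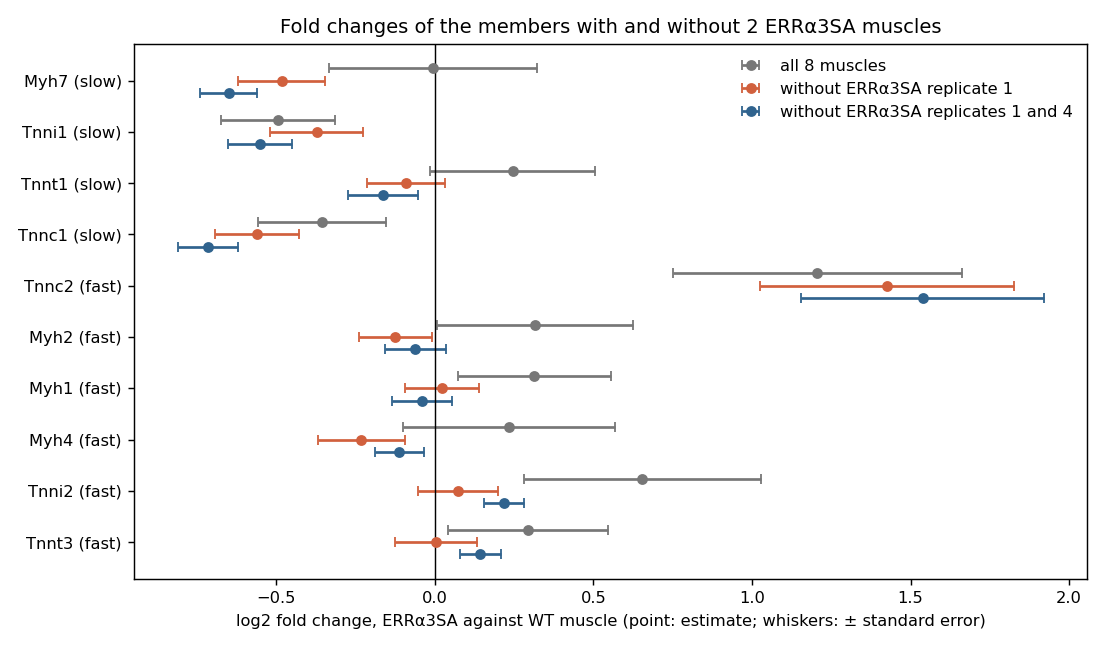
Log2 fold change of each member, ERRα3SA against WT muscle (points, edgeR estimate; whiskers, standard error), with all 8 muscles, without ERRα3SA muscle 1, and without ERRα3SA muscles 1 and 4. Myh7 moves from -0.01 (0.01 by DESeq2) to -0.48 and -0.65, while the 5 abundant fast genes stay between -0.23 and 0.65.

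Myh7 (chr14:54970684-54994626, minus strand) encodes the slow myosin heavy chain, the motor of slow fibers. Its level was 901, 931, 917 and 984 CPM in WT muscles 1 to 4 and 1729, 512, 676 and 802 CPM in ERRα3SA muscles 1 to 4. The WT muscles lay close together, ERRα3SA muscle 1 was far above all of them, and the other 3 ERRα3SA muscles were below every WT muscle. With all 8 muscles the log2 fold change was -0.01 ± 0.33, not called, and its sign turned with DESeq2 or its size factors, at 0.01 in both. Without ERRα3SA muscle 1, Myh7 fell by 0.48 on the log2 scale (adjusted p = 0.0848 by the quasi-likelihood test of edgeR, Benjamini-Hochberg; adjusted p = 0.00793 by DESeq2; 5.89e-04 to 1.00 over the 19 alternatives tried). Without muscles 1 and 4 it fell by 0.65. The lowest adjusted p of that range came from this fit, chosen after the data were seen. Without ERRα3SA muscle 2, 3 or 4 or without WT muscle 4 the value turned positive, at 0.20, 0.13, 0.06 and 0.02, and was not called.

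Tnni1 (chr1:135779434-135810989, plus strand) encodes slow troponin I, the subunit that holds contraction off at rest. It was counted at 163, 168, 145 and 167 CPM in the WT muscles and at 86.2, 92.9, 126 and 151 CPM in ERRα3SA muscles 1 to 4. ERRα3SA muscles 1, 2 and 3 were below every WT muscle, and ERRα3SA muscle 4 lay inside the WT range. ERRα3SA muscle 1, the highest muscle for Myh7, was the lowest for Tnni1. Tnni1 fell by 0.50 on the log2 scale with all 8 muscles and by 0.37 without ERRα3SA muscle 1 (adjusted p = 0.171 by the same test of edgeR, Benjamini-Hochberg; 0.00397 to 1.00 over the 19 alternatives). Its fold changes were 0.709 and 0.772. With all 8 muscles its adjusted p was 0.9996 by the same test. The 0.00397 came from the fit without ERRα3SA muscles 1 and 4, chosen after the data were seen. The call was lost without WT muscle 2 (-0.47) and without ERRα3SA muscle 2 (-0.41).

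Tnnc1 (chr14:31208312-31211729, plus strand) encodes the calcium-binding troponin C of slow fibers and heart. Its WT levels were 194, 214, 173 and 212 CPM, and its ERRα3SA levels were 219, 109, 131 and 159 CPM. On this TMM scale ERRα3SA muscle 1 was the highest of the 8 and the other 3 ERRα3SA muscles were below every WT muscle, as for Myh7. Per library total the order turned, with ERRα3SA muscle 1 at 165 CPM, below every WT muscle (175 to 221 CPM), and ERRα3SA muscle 4 at 181 CPM, inside the WT range. With all 8 muscles Tnnc1 was not called, at -0.36 ± 0.20. Without ERRα3SA muscle 1, Tnnc1 fell by 0.56, with adjusted p = 0.0543 by the same test of edgeR, Benjamini-Hochberg, adjusted p = 0.00129 by DESeq2 and a range of 4.27e-04 to 1.00 over the 19 alternatives. Without muscles 1 and 4 it fell by 0.72. The lowest adjusted p of that range came from this fit, chosen after the data were seen.

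Tnnt1 (chr7:4504570-4516382, minus strand) encodes slow troponin T, which ties troponin to tropomyosin, and it did not follow the other slow genes. Its WT levels were 297, 294, 239 and 327 CPM, and its ERRα3SA levels were 563, 227, 289 and 294 CPM. ERRα3SA muscle 1 was the highest muscle, ERRα3SA muscle 2 the lowest, and muscles 3 and 4 lay inside the WT range. Per library total, ERRα3SA muscle 4 was above the WT range, at 335 CPM against 241 to 329 CPM. Tnnt1 was at 0.25 ± 0.26 on the log2 scale with all 8 muscles and at -0.09 ± 0.12 without ERRα3SA muscle 1, a turn of direction with no call in either set. Of the 4 slow members, 1 was called with all 8 muscles and 3 without ERRα3SA muscle 1, where 4.54% and 17.4% of all genes were, and their median log2 fold change was -0.18 and -0.43, where that of all genes tested was 0.02 both times. The plot of levels shows each member in each muscle, with ERRα3SA muscle 1 above or below the rest for 9 of 10.

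**Figure D3:**
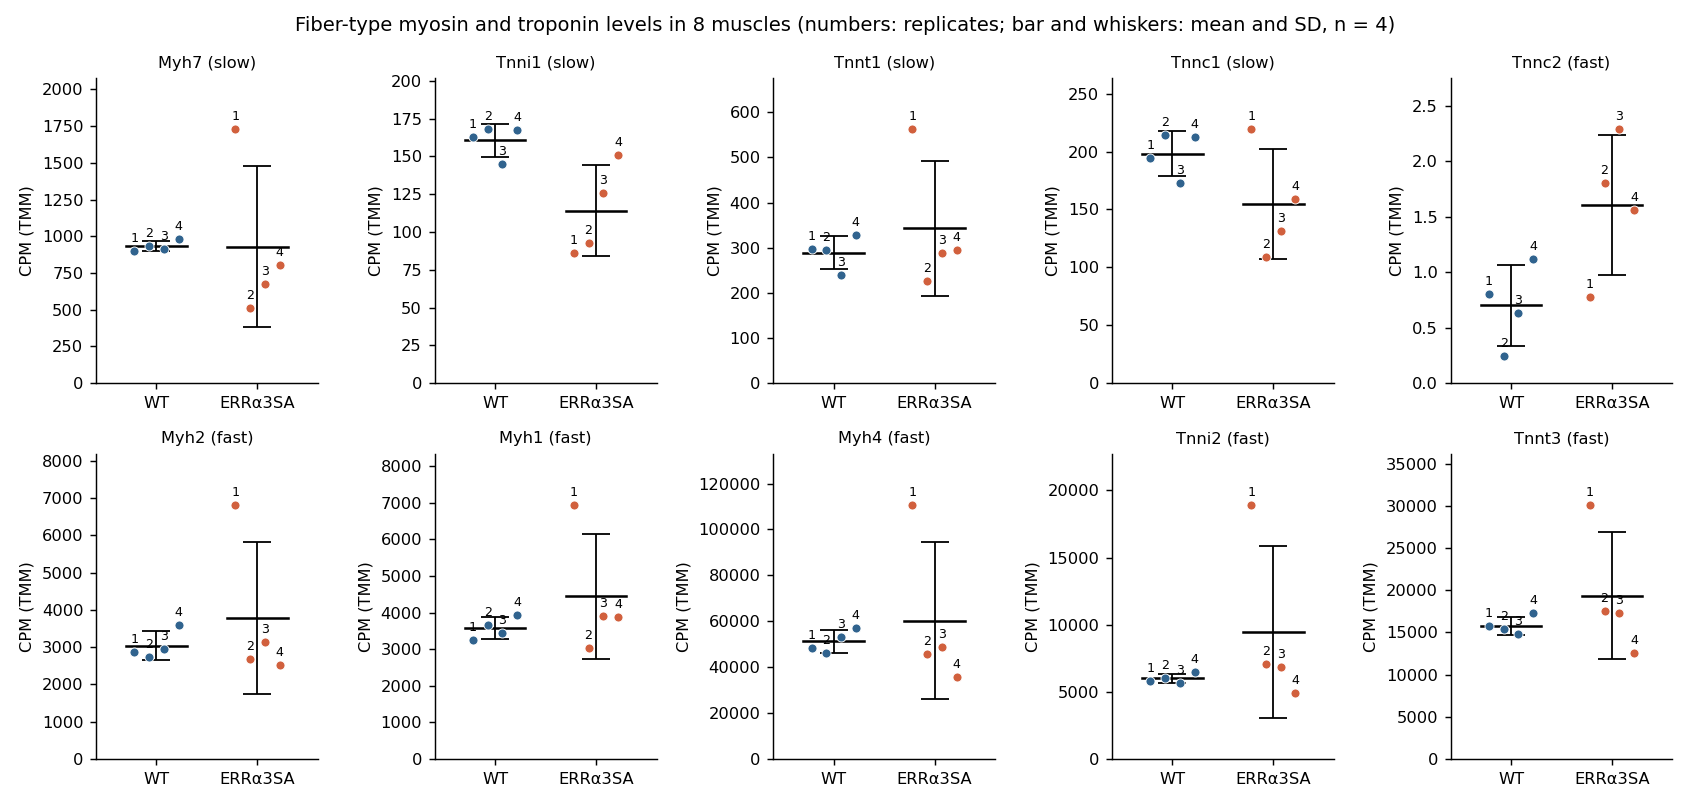
TMM-scaled CPM of the 10 members in each muscle (points, numbered by replicate; bar and whiskers, mean and SD, n = 4). ERRα3SA muscle 1 is the highest of the 8 muscles for 8 of 10 members and the lowest for Tnni1, at 86.2 CPM.

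The fast myosin genes Myh2 (chr11:67171027-67197517, plus strand), Myh1 (chr11:67200052-67224575, plus strand) and Myh4 (chr11:67238029-67260446, plus strand) stand in a row on chromosome 11, in the same direction. They share a stretch of sequence in front of their starts, shown here as a description. The windows shown are from promoters of RefSeq transcripts on GRCm38.p6, plus strand, at chr11:67170857-67170956 for Myh2, chr11:67199897-67199996 for Myh1 and chr11:67237609-67237708 for Myh4. Capitals mark the longest run of bases found in all 3.
Myh2: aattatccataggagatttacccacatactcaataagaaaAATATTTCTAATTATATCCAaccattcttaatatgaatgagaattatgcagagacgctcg
Myh1: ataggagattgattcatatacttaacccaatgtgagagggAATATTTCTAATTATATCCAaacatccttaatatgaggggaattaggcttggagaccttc
Myh4: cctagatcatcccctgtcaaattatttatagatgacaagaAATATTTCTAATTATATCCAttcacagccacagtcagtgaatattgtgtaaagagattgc
The run is 20 bases long and begins 130 bases upstream of the start in Myh2, 165 in Myh1 and 163 in Myh4. Of 32851 promoters, each from 250 bases upstream to 50 downstream of a start, 3 held it, those of Myh1, Myh2 and Myh4. The run was picked from these 3 promoters before the search, so that count tests nothing.

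Promoter entries were found for 8 of 10 members, all but Tnni2 and Tnnt3. The sequence TNAAGGTCA, the extended site bound by ERR receptors, was in 0 of these 8 genes' promoters on either strand, and in 1.28% of all promoters. MEF2 motifs, bound by a family of muscle transcription factors, were in those of Myh1 and Myh4 and in 3.19% of all, on both strands. A CArG motif, bound by serum response factor, was in that of Myh4 and in 1.63% of all, on both strands. The letters TATAAA on the gene's strand were in the promoters of Tnnt1, Myh2, Myh1 and Myh4 and in 8.32% of all. These matches describe letters in the windows and nothing bound there.

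Myh2 encodes the myosin of fast oxidative fibers. Its WT levels were 2879.9, 2731, 2952 and 3595 CPM, and its ERRα3SA levels were 6816, 2671, 3140.4 and 2508 CPM. ERRα3SA muscle 1 was far above the rest, muscles 2 and 4 were just below the WT range and muscle 3 lay inside it. Per library total, ERRα3SA muscle 4 lay inside the WT range, at 2855 CPM against 2816 to 3611 CPM. Myh2 was at 0.32 ± 0.31 with all 8 muscles and -0.12 ± 0.11 without ERRα3SA muscle 1, not called in either. Myh1, the myosin of intermediate fast fibers, stood at 3248, 3673, 3429 and 3943 CPM in WT and at 6945, 3021, 3913 and 3887 CPM in ERRα3SA muscle. Outside ERRα3SA muscle 1, only ERRα3SA muscle 2 left the WT range of Myh1 on this TMM scale, on the low side. Per library total, ERRα3SA muscles 3 and 4 were above that range, at 3970 and 4425 CPM against 3428 to 3960 CPM in WT. Myh1 was not called, at 0.31 ± 0.24 with all 8 muscles and 0.02 ± 0.12 without ERRα3SA muscle 1.

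Myh4, the myosin of the fastest glycolytic fibers, was the member with the most counts. It stood at 48201, 46131, 53305 and 57146 CPM in WT and at 110680.0, 45556, 48932 and 35669.8 CPM in ERRα3SA muscle. ERRα3SA muscle 1 was above every WT muscle, muscles 2 and 4 were below every WT muscle, and muscle 3 lay among them. On the log2 scale Myh4 was at 0.23 ± 0.33 with all 8 muscles and -0.23 ± 0.14 without ERRα3SA muscle 1, a turn of direction without a call. Part of each myosin's sequence occurs in its relatives. Of all 50-base stretches, 25.4% of those in Myh1, 22.9% in Myh2, 18.9% in Myh4 and 15.6% in Myh7 also occur in another gene of the listed myosin family, where the troponin genes share 0 to 0.0543%. How reads from these stretches were assigned was not tested.

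Tnni2 (chr7:142441808-142444410, plus strand) encodes fast troponin I. It was counted at 5813, 6061, 5668 and 6439 CPM in WT and at 18921, 7059, 6863 and 4905 CPM in ERRα3SA muscle. ERRα3SA muscles 1, 2 and 3 were above every WT muscle and ERRα3SA muscle 4 was below every one. Tnni2 was not called with all 8 muscles (0.65 ± 0.37) or without ERRα3SA muscle 1 (0.07 ± 0.13). Without ERRα3SA muscle 4 it was 0.87 ± 0.34, which passed the call. Without both muscles it was 0.22 ± 0.06, a fold change of 1.16 that stayed under 1.2, with adjusted p = 0.0404 by the same test of edgeR, Benjamini-Hochberg, and a range of 0.0404 to 1.00 over the 19 alternatives.

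Tnnt3 (chr7:142498836-142516009, plus strand), fast troponin T, neighbors Tnni2 on chromosome 7. Its WT levels were 15713, 15423, 14752 and 17298 CPM, and its ERRα3SA levels were 30103, 17520.1, 17286 and 12498 CPM. The ordering of the ERRα3SA muscles resembled that of Tnni2, with muscle 1 far above the rest and muscle 4 below all. Tnnt3 was not called, at 0.29 ± 0.25 on the log2 scale with all 8 muscles and 0.00 ± 0.13 without ERRα3SA muscle 1. Without ERRα3SA muscle 4 the fast genes not called stood higher, at 0.46 for Tnnt3, 0.47 for Myh2, 0.42 for Myh4 and 0.38 for Myh1. Of the 6 fast members, Tnnc2 included, 1 was called with all 8 muscles and 1 without ERRα3SA muscle 1, where 4.54% and 17.4% of all genes were, with a median log2 fold change of 0.31 and 0.01.

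Tnnc2 (chr2:164777161-164779967, minus strand) encodes fast troponin C, the calcium sensor of fast fibers, and it was barely counted. Its raw counts were 22, 6, 16 and 28 in the WT muscles and 13, 52, 67 and 45 in the ERRα3SA muscles. In TMM-scaled CPM these were 0.807, 0.247, 0.632 and 1.12 in WT and 0.776, 1.81, 2.29 and 1.56 in ERRα3SA. ERRα3SA muscles 2, 3 and 4 were above every WT muscle, and muscle 1 lay inside the WT range. Tnnc2 rose by 1.21 ± 0.46 on the log2 scale with all 8 muscles and by 1.43 ± 0.40 without ERRα3SA muscle 1 (adjusted p = 0.0819 by the same test of edgeR, Benjamini-Hochberg; adjusted p = 0.0186 by DESeq2; 0.0186 to 1.00 over the 19 alternatives). The call was lost without WT muscle 2 (0.93), WT muscle 3 (1.16), ERRα3SA muscle 2 (1.15) or ERRα3SA muscle 3 (1.00). Of the exon bases of Tnnc2, 592, or 74%, lie under exons of Ube2c, a cell-cycle gene on the opposite strand. Ube2c had 7 to 93 counts in the muscles. The counting tool drops reads that overlap more than 1 gene when strand is not used, and the strand setting is not stated, so the part of this overlap in the low level of Tnnc2 was not tested.

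Within each family, the slow version's share of the counts per kilobase shows the balance of fiber-type genes in a muscle free of library scaling. Myh7 made up 1.58, 1.68, 1.46 and 1.45% of the 4 myosins in the WT muscles and 1.33, 0.956, 1.15 and 1.81% in the ERRα3SA muscles. ERRα3SA muscles 1, 2 and 3 were below every WT muscle and ERRα3SA muscle 4 was above all of them. The group means were 1.54% ± 0.110 and 1.31% ± 0.366 (SD, n = 4 each), a difference smaller than the spread in the ERRα3SA group. Tnni1 made up 1.15, 1.14, 1.05 and 1.07% of the pair with Tnni2 in WT muscle and 0.189, 0.544, 0.757 and 1.26% in ERRα3SA muscle. Again muscles 1, 2 and 3 were below the WT range and muscle 4 above it, with group means of 1.1% ± 0.0499 and 0.688% ± 0.449 (SD, n = 4 each). In ERRα3SA muscle 1 the Tnni1 share of the plain counts was 0.454% (95% Wilson interval 0.431 to 0.478%).

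The share of Tnnt1 in the pair with Tnnt3 was 1.89, 1.91, 1.62 and 1.89% in WT muscle and 1.87, 1.30, 1.67 and 2.34% in ERRα3SA muscle. ERRα3SA muscle 2 was below the WT range, muscle 4 above it, and the other 2 inside it. Among the fast myosins, Myh4 made up 87.3% ± 0.685 of the 4 myosins in WT and 86.5% ± 2.18 in ERRα3SA muscle (SD, n = 4 each). The Myh1 share was 5.83, 6.81, 5.61 and 5.95% in WT and 5.45, 5.78, 6.84 and 8.99% in ERRα3SA muscle. The high value of Myh1 in ERRα3SA muscle 4 came with the lowest Myh4 share, 83.4%, and with the highest shares of Myh7, Tnni1 and Tnnt1. So the muscle apart in macrophage markers and in the sum of fibroblast markers also had the largest slow shares in 3 families. Within the fibroblast list, Dcn and Tnmd were lowest in that muscle in TMM-scaled CPM, against the direction of the sum. The part of those cells in the shares was not tested. The Tnnc1 share was 98.2 to 99.9% of the troponin C pair in every muscle, since Tnnc2 was barely counted. The plot of shares shows these values.

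**Figure D4:**
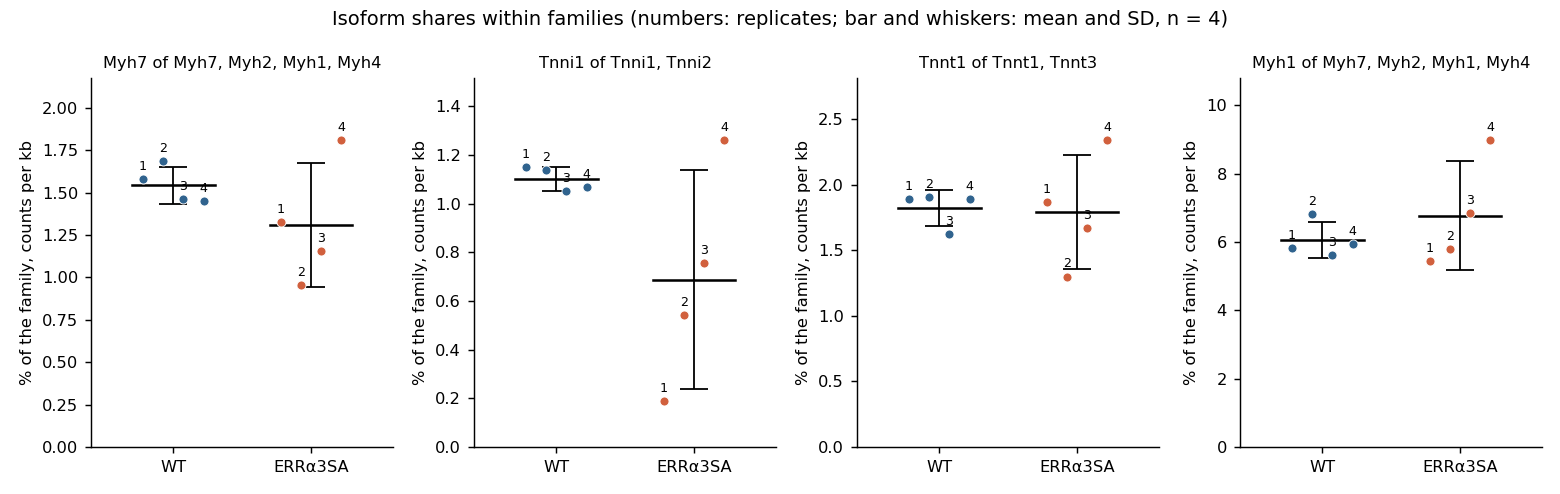
Percent of each family's counts per kilobase taken by Myh7, Tnni1, Tnnt1 and Myh1 in each muscle (points, numbered by replicate; bar and whiskers, mean and SD, n = 4). ERRα3SA muscle 4 has the highest share in all 4 panels, and ERRα3SA muscle 1 has the lowest Tnni1 share, 0.189%.

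Leaving out ERRα3SA muscle 1 tightened the correlations of Myh7, Tnni1 and Tnnc1 and loosened those of the fast genes. Over the other 7 muscles, the Pearson correlation of log2 CPM was 0.967 between Myh7 and Tnni1, 0.961 between Myh7 and Tnnc1 and 0.955 between Tnni1 and Tnnc1. Tnnt1 was looser, at 0.623 with Myh7. Among the fast genes, Tnni2 and Tnnt3 had 0.966, Myh2 and Myh4 had 0.857, and Myh1 and Myh4 had -0.0333. Myh7 was at -0.523 with Tnni2 and at 0.308 with Myh4. Pairs of the 5 abundant fast genes were at 0.795 to 0.981 with all 8 muscles and at -0.250 to 0.966 without muscle 1. With all 8 muscles Myh7 was at 0.813 with Myh2, while Myh7 and Tnni1 were at -0.0752. Tnni1 was at -0.757 to -0.464 with the 5 abundant fast genes, and Tnnc1 at 0.257 to 0.49. These values describe 8 or 7 samples and were not tested.

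Other slow-fiber genes were mixed in direction. Of 12 on the list, 1 was called with all 8 muscles, higher, and 4 without ERRα3SA muscle 1, 2 higher and 2 lower, where 4.54% and 17.4% of all genes were. Without muscle 4, 2 were called higher and 1 lower, and without both muscles 2 higher and 4 lower. The gene called with all 8 muscles was Ankrd2, a stretch-sensitive protein of the sarcomere and nucleus, at 115, 127, 131 and 151 CPM in WT and 211, 145, 196 and 282 CPM in ERRα3SA muscle. All but 1 of its ERRα3SA values were above the WT range, muscle 2 being inside it, and Ankrd2 rose by 0.67 ± 0.19 with all 8 muscles. Tpm3, the tropomyosin of slow fibers, stood at 523, 617, 556 and 654 CPM in WT and 1351, 301, 344 and 479 CPM in ERRα3SA muscle. It resembled Myh7, with muscle 1 highest and the other 3 below every WT muscle. Tpm3 was at 0.08 with all 8 muscles and fell by 0.64 without ERRα3SA muscle 1, a reversal that rests on that muscle.

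Mybpc1, slow myosin-binding protein C, fell by 0.28 without ERRα3SA muscle 1 and was at -0.06 with all 8. It was at 0.07 without muscle 4 and -0.18 without both, called in neither. Csrp3, a stretch sensor at the Z-disc, stood at 70.5, 72.6, 91.3 and 83.5 CPM in WT and 70.8, 84.7, 137 and 309 CPM in ERRα3SA muscle. Its value in ERRα3SA muscle 4 was far above all others. Csrp3 was at 0.92 with all 8 muscles, not called. It rose by 1.17 without ERRα3SA muscle 1 but was at 0.30 without ERRα3SA muscle 4, not called. Without both muscles Csrp3 was called, 0.48 higher. Myl3, the slow essential light chain, was inside the WT range in ERRα3SA muscles 3 and 4 and below it in 1 and 2, not called at -0.24 ± 0.19. The median log2 fold change of the 12 genes was 0.11 with all 8 muscles and -0.06 without ERRα3SA muscle 1.

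Of 11 other fast-fiber genes, 0 were called with all 8 muscles, 0 had an unadjusted p under 0.05 in edgeR, and 2 were called lower without ERRα3SA muscle 1, where 17.4% of all genes were called. Without muscle 4, 1 was called higher and 0 lower, and without both muscles 2 higher and 0 lower, so the list's calls turned to the other direction. The 2 lower genes were Tpm1, the main fast tropomyosin, and Casq1, the calcium store of the fast sarcoplasmic reticulum. Tpm1 was at 18412, 18506, 18998 and 20259 CPM in WT and 31329, 16549.5, 16585 and 11060.5 CPM in ERRα3SA muscle. Its ERRα3SA muscles 2, 3 and 4 were below every WT muscle and muscle 1 far above. Tpm1 fell by 0.36 and Casq1 by 0.37 without ERRα3SA muscle 1, against -0.01 and -0.17 with all 8 muscles. Both calls were absent without ERRα3SA muscle 4, at 0.18 and -0.02, and without muscles 1 and 4, at -0.20 and -0.21. Pvalb, the calcium buffer of the fastest fibers, was lowest in ERRα3SA muscle 1, at 2952 CPM, against 5129 to 8166 CPM in the other 7. The fast light chain Myl1 was highest there, at 16567 CPM, against 6952 to 9821 CPM. So ERRα3SA muscle 1 held both the highest and the lowest values of fiber-type genes, as for Myh7 and Tnni1.

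Developmental and cardiac versions of these families were low. Of 6 on the list, 5 passed the filter and 0 were called with either set of muscles, 0 with an unadjusted p under 0.05 with all 8 muscles by edgeR. Embryonic myosin Myh3 was at 4.48, 5.68, 3.16 and 22.6 CPM in WT and 17.0, 4.31, 5.57 and 3.30 CPM in ERRα3SA muscle. WT muscle 4 and ERRα3SA muscle 1 were above the other 6. Tnnt2, cardiac troponin T, was at 2.76 to 4.27 CPM in the 8 muscles, with full overlap. The cardiac Myh6 that shares sequence with Myh7 was at 2.56 to 4.0 CPM.

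Of 20 known regulators of fiber type, 0 were called with all 8 muscles (0 with an unadjusted p under 0.05 by edgeR) and 6 without ERRα3SA muscle 1, 2 higher and 4 lower, where 17.4% of 14363 genes were. Without muscle 4, 0 were called, and without both muscles 2 higher and 1 lower. Esrra, the gene of ERRα itself, was at 94.2, 86.1, 69.7 and 81.6 CPM in WT and 25.8, 139.6, 134 and 103 CPM in ERRα3SA muscle. ERRα3SA muscle 1 was far below every WT muscle and the other 3 were above every one. Esrra was at 0.28 ± 0.41 with all 8 muscles and rose by 0.60 ± 0.12 without muscle 1. Esrrg, the related receptor ERRγ that favors slow oxidative fibers, was at 40.2, 38.4, 48.1 and 50 CPM in WT and 56.5, 32.6, 33.2 and 28.5 CPM in ERRα3SA muscle. Here muscle 1 was the highest and the other 3 were below the WT range. Esrrg was at -0.23 with all 8 muscles and fell by 0.48 without muscle 1.

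Ppargc1a, the coactivator PGC-1α that drives oxidative genes, fell by 0.36 without ERRα3SA muscle 1 and was at -0.12 with all 8, 0.02 without muscle 4 and -0.24 without both, called in none of these 3. Mef2c and Tead1, DNA-binding factors of muscle genes, fell by 0.29 and 0.33 without it, against 0.08 and -0.09 with all 8. Neither was called without muscle 4, at 0.24 and 0.06, or without muscles 1 and 4, at -0.20 and -0.21. Rcan1, a calcineurin inhibitor, was at 0.68 with all 8 muscles, not called, and rose by 0.91 without ERRα3SA muscle 1. It was at 0.22, not called, without ERRα3SA muscle 4, the muscle where it stood at 313 CPM. Without both muscles Rcan1 was called, 0.42 higher. Tbx15, a factor of fast fibers, was not called, at 0.03 and -0.09. Where 3.23% of genes passed at adjusted p under 0.05 without ERRα3SA muscle 1, 2 of the 20 did, Esrra (adjusted p = 0.0373; 3.11e-04 to 1.00 over the 19 alternatives) and Esrrg (adjusted p = 0.0459; 0.00265 to 1.00), by the quasi-likelihood test of edgeR, Benjamini-Hochberg. For Esrra the lowest of the range came from the fit without ERRα3SA muscles 1 and 4, chosen after the data were seen.

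Genes of denervated or regenerating muscle were also counted. Of 8, 7 passed the filter, 1 was called higher with all 8 muscles and 2 without ERRα3SA muscle 1, where 4.54% and 17.4% of all genes were. Without muscle 4, and without both muscles, 1 was called, higher. In the same muscles, all 6 genes of a cell marker list not named here were called lower, with all 8 and without ERRα3SA muscle 1. The part of that cell type in these values was not tested. Gadd45a, a stress gene induced in denervated muscle, was at 8.11, 8.73, 7.93 and 9.51 CPM in WT and 8.36, 14.2, 12.3 and 17.2 CPM in ERRα3SA muscle. Muscles 2, 3 and 4 of the ERRα3SA group were above every WT muscle, and muscle 1 inside their range. Gadd45a rose by 0.61 ± 0.21 with all 8 and by 0.78 ± 0.13 without muscle 1. Runx1, a transcription factor of denervated fibers, was at 1.97 to 2.75 CPM in 7 muscles and at 27.0 CPM in ERRα3SA muscle 4. Its call without muscle 1 (2.12) was absent without muscle 4 (-0.10). Musk, the receptor that builds the nerve-muscle synapse, was also highest in ERRα3SA muscle 4, at 51.1 CPM against 22.9 to 29.1 CPM.

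Macrophage markers summed to 68.1, 72.6, 77.7 and 85.5 CPM per library total in WT and 58.9, 67.0, 68.7 and 249.8 CPM in ERRα3SA muscle, led by Csf1r or Mrc1. None of the 6 was at 0 in any muscle, and 0 of 6 were called with all 8 muscles (0 at unadjusted p under 0.05 by edgeR). Without ERRα3SA muscle 1, 2 were called, higher, where 17.4% of all genes were called. Those 2 calls rested on muscle 4. Without it 0 were called, and without both muscles 1 was, lower, the median log2 fold change going from 1.02 to -0.13. Tendon and fibroblast markers summed to 2881, 2094, 1781 and 2505 CPM per library total in WT and 1689, 2044, 1672 and 4840.0 CPM in ERRα3SA muscle, led by Dcn in 7 muscles and Col3a1 in ERRα3SA muscle 4. In TMM-scaled CPM, Col1a1, Col1a2, Col3a1, Thbs4 and Scx were highest in ERRα3SA muscle 4. Dcn (409 CPM) and Tnmd (8.43 CPM) were lowest there, and Fmod (165 CPM) lay inside the range of the other muscles. None of these 8 markers was at 0, and 0 of 8 were called with all 8 muscles (0 at unadjusted p under 0.05 by edgeR). Without ERRα3SA muscle 1, 1 of 8, Dcn, was called, lower, where 17.4% of all genes were called. The part of both lists in the values of ERRα3SA muscle 4 was not tested.

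The adipocyte, endothelial, erythroid and satellite cell lists had 0 or 1 call each with all 8 muscles, and 0 to 2 each without muscle 4 or without muscles 1 and 4. With all 8 muscles, 1 of 8 adipocyte markers (Retn, lower), 0 of 6 endothelial, 1 of 5 erythroid (Hba-a2, higher) and 1 of 4 satellite cell markers (Myf5, lower) were called. Without ERRα3SA muscle 1 each of these lists had 1 call, where 17.4% of all genes were called. Retn and Myf5 were then lower, and Egfl7 and Hbb-bt higher. Hba-a2 was at 0.93 with all 8 muscles and at 0.54 without muscle 1, where it was not called. Sums here are per library total. The adipocyte sum was 312, 280.4, 207 and 179.7 CPM in WT and 204, 274, 242 and 233 CPM in ERRα3SA muscle, with overlap, led by Fabp4. The endothelial sum was 292, 264, 295 and 269 CPM in WT and 240.0, 285, 265 and 308 CPM in ERRα3SA muscle, led by Cdh5 or Pecam1. The erythroid sum was 102, 128, 87.3 and 81.2 CPM in WT and 75.8, 84.1, 111 and 193 CPM in ERRα3SA muscle, led by Hbb-bs. The satellite cell sum was 28.3, 25.5, 26.4 and 27.4 CPM in WT and 15.2, 26.6, 27.3 and 37.4 CPM in ERRα3SA muscle, led by Cdh15. The genotypes overlapped in all 4 sums. No gene of these 4 lists was at 0 in any muscle. Of 8 skeletal muscle markers, 0 were called with all 8 muscles (0 at unadjusted p under 0.05 by edgeR) and 2, the giant sarcomere proteins Ttn and Neb, were lower without ERRα3SA muscle 1, where 17.4% of all genes were called. Without muscle 4, 0 were called, with a median log2 fold change of 0.15, and without both muscles 2 were called lower. Of 7 cardiac markers, 3 passed the filter and 0 were called, and Nppa and Myl7 were at 0 counts in every muscle. The cardiac sum was 72.0, 81.4, 99.7 and 92.1 CPM in WT and 69.2, 113, 83.0 and 143 CPM in ERRα3SA muscle, led by Actc1. Of 8 hepatocyte markers, 1 passed the filter and 0 were called. The part of these cell types in the members' values was not tested.

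Genes with the most similar pattern were sought among 7271 genes with a mean of at least 10 CPM, by the Pearson correlation of log2 CPM over the 8 muscles. For Myh7 these were Nrf1, Tpm3, Golim4, Smc5 and Rsu1, at 0.975 to 0.994. Nrf1, a factor for nuclear genes of mitochondria, was the closest, at 0.994 over 8 muscles and 0.985 over 7 without ERRα3SA muscle 1. The slow tropomyosin Tpm3 came second, at 0.987 and 0.967. For Myh2 the first 4 were Hdlbp, Homer2, Wdr70 and Hrc, at 0.985 to 0.990 over 8 muscles and 0.884 to 0.935 over 7. For Myh4 they were Hrc, Drosha, Myom1, Grsf1 and mt-Cytb, at 0.991 to 0.994 over 8 muscles and 0.947 to 0.969 over 7. Hrc, a calcium-binding protein of the sarcoplasmic reticulum, was named for both Myh2 and Myh4. These correlations are over 8 or 7 muscles of both genotypes. Each of the genes named had their highest level in ERRα3SA muscle 1, as did Myh7, Myh2 and Myh4.

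Liver, which holds no skeletal muscle fibers of its own, served as the negative tissue and was nearly empty of these genes. In the 8 livers of the ERRα3SA experiment the 10 members summed to 10.3, 1.76, 1.5 and 1.41 CPM in WT and to 1.36, 1.47, 7.79 and 0.439 CPM in ERRα3SA liver per library total, or 0.00103% of all counts in WT liver 1, against 6.93 to 13.3% in the muscles. WT liver 1 and ERRα3SA liver 3 were above the other 6. Tnni1 and Tnnc2 had 0 counts in all 8 livers, which allows up to 0.0898 to 0.146 CPM in each. The counts of Myh1 were 122, 0, 0 and 2 in the WT livers and 0, 0, 39 and 1 in the ERRα3SA livers. Those of Tnnt3 were 74, 0, 2 and 1 and 0, 0, 33 and 0. The livers high in fast members were the same for both genes. Acta1, the main actin of skeletal muscle, was at 4.97 CPM in WT liver 1, 4.32 CPM in ERRα3SA liver 3 and at most 0.0427 CPM in the other 6.

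The 8 skeletal muscle markers summed to 26.6, 23.8, 19.2 and 19.3 CPM in the WT livers and 20.8, 19.8, 30.1 and 18.7 CPM in the ERRα3SA livers. Neb led the list in all 8, 0 of the 8 markers were at 0 counts in WT liver 1 and ERRα3SA liver 3, and 3 to 5 were at 0 in each other liver. The part of muscle tissue in these livers was not tested. Unlike Tnni1, the slow troponin genes Tnnt1 and Tnnc1 were counted in each of the 8 livers. Tnnt1 had 34, 19, 24 and 16 counts in WT and 13, 17, 20 and 4 in ERRα3SA liver. Tnnc1 had 21, 22, 10 and 11 in WT and 15, 16, 15 and 3 in ERRα3SA liver. This held in livers with 0 counts of Acta1 too, and the genotypes overlapped. Only these 2 of 10 members passed the liver's filter. On the log2 scale, Tnnt1 was at -0.47 ± 0.40 and Tnnc1 at -0.08 ± 0.44, so 0 of 2 were called, where 4.88% of 13339 genes were. At unadjusted p under 0.05, edgeR and DESeq2 also gave 0 of these 2.

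**Figure D5:**
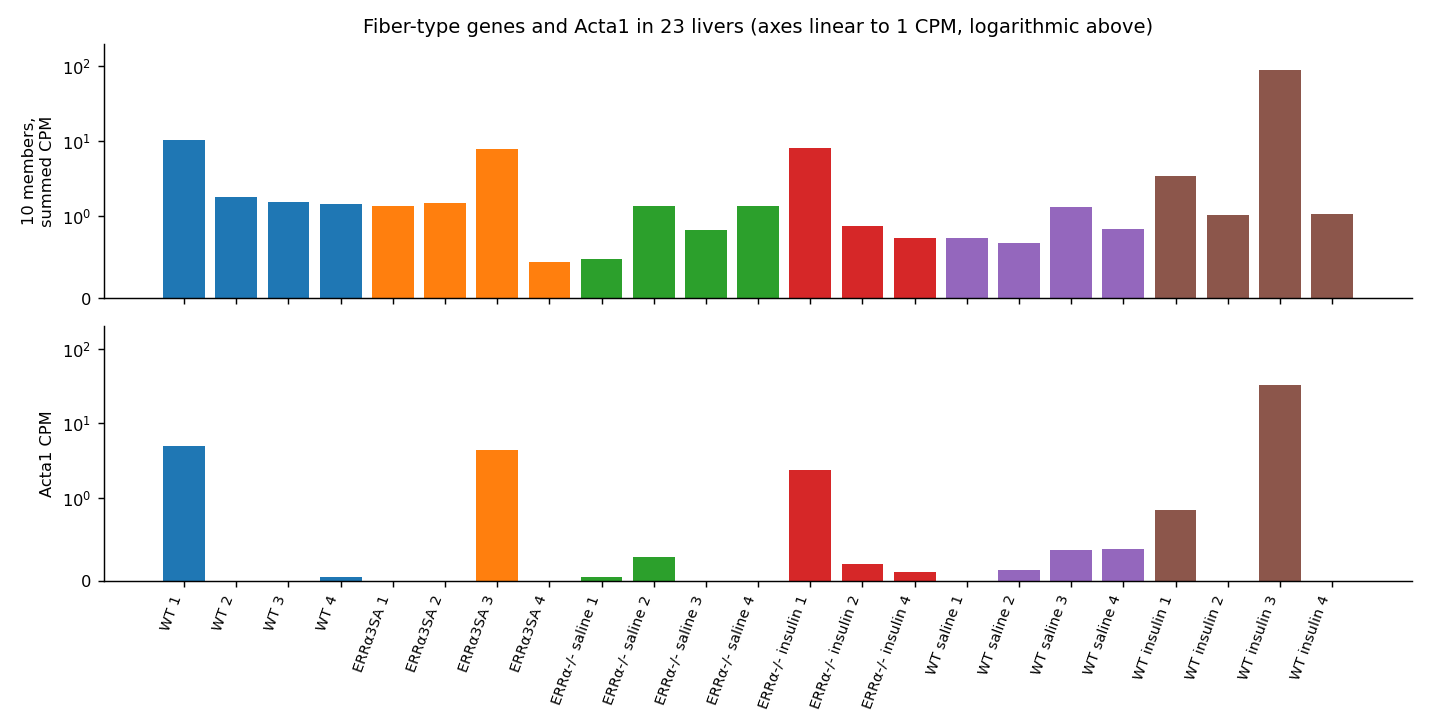
Summed CPM of the 10 members (top) and CPM of Acta1 (bottom) in 23 livers, on axes linear to 1 CPM and logarithmic above. WT insulin liver 3 stands highest in both, at 90.9 and 32.7 CPM.

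In the livers of the insulin experiment the members were low in all but a few libraries. The members summed to 0.727, 0.667, 1.30 and 0.839 CPM in WT saline livers 1 to 4 and to 3.43, 1.03, 90.9 and 1.06 CPM in WT insulin livers 1 to 4. In ERRα-/- livers they summed to 0.473, 1.35, 0.828 and 1.33 CPM after saline and to 8.06, 0.868 and 0.734 CPM after insulin. WT insulin liver 3 was far above every other liver of the series, while the other insulin livers reached both inside and above the saline range. In that liver Myh1 had 1333 counts, Myh4 809, Tnnt3 493, Myh2 446, Tnni2 277, Myh7 94, Tnnt1 80, Tnni1 1, and Tnnc1 and Tnnc2 0. Acta1 was at 32.7 CPM there and at 2.40 CPM in ERRα-/- insulin liver 1, the liver with the next highest sum among these 15. The plot of the 23 livers shows the member sum and Acta1 peaking in the same libraries. Tnnt1 was counted in all 15, from 5 to 80 counts, and was highest in WT insulin liver 3 and ERRα-/- insulin liver 1. Tnnc1 had 0 counts in those 2 livers and in WT insulin liver 2, and 1 to 15 counts in the other 12.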

How the data were processed

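Read counts were used as deposited. The authors aligned paired-end reads to the mouse genome and counted reads on each gene with STAR 2.5, and the strand setting is not stated. The values are raw counts, with 0 columns that belong to no sample. Muscle and liver of the ERRα3SA experiment were each compared, ERRα3SA against WT, with edgeR 4.0.16 in R 4.3.3 (TMM factors, filterByExpr by group, quasi-likelihood test, p-values adjusted by Benjamini-Hochberg over all genes tested). DESeq2 1.42.0 was an alternative. Calls combined a fold change of 1.2 or more, up or down, with an unadjusted p under 0.05. The insulin experiment gave levels only. Log2 CPM for correlations used a prior count of 2. The tests were tested on simulated data, drawn from the means and spread of the WT samples, with changed genes set at 1.5 on the log2 scale. Those data held no library apart from its group, so they do not show how the tests act with ERRα3SA muscle 1 or on smaller changes.

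The members and lists were chosen with earlier results of these data known. Named from each list of related genes were those called with all 8 muscles or without ERRα3SA muscle 1, and the 2 most abundant per kilobase in WT muscle. Genes named from the cell marker lists were chosen after their values were seen. Leaving out ERRα3SA muscles 1 and 4 together was also chosen after seeing the data. Promoters are RefSeq entries, 250 bases before to 50 bases after each start. A marker list and 1 correlated gene are not reported here.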

Additional observations from a re-analysis of the deposited data

Results flagged for a closer look

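ERRα3SA muscle 1 was the sample most often far from the rest of its group. Its level was 6816.5 CPM for Myh2, 18920.8 CPM for Tnni2, 1351 CPM for Tpm3, 17.0 CPM for Myh3 and 56.5 CPM for Esrrg, each well above the other 3 ERRα3SA muscles. Its mitochondrial genes took 19.3% of its counts, also above the rest of its group. ERRα3SA muscle 4 was far above its group for Runx1, at 27.0 CPM, and for Musk, at 51.1 CPM. In the WT group, muscle 4 was far above the others for Myh3, at 22.6 CPM, and muscle 3 below them for the Tnnt1 share of its family, at 1.62%. Of 78 groups of samples looked at, 13 held such a sample, 6 of them ERRα3SA muscle 1. Chance gives about 1 in 20 independent groups, but these groups share libraries, and some genes were named because they were called without ERRα3SA muscle 1, so the numbers are a description. The cause was not tested.

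In liver, the summed level of the 10 members was far above the rest of the group in WT liver 1, at 10.3 CPM, in ERRα3SA liver 3, at 7.79 CPM, and in WT insulin liver 3, at 90.9 CPM. In the insulin experiment, which the comparisons did not use, the sum was above every saline liver of the same genotype in WT insulin liver 1 (3.43 CPM), WT insulin liver 3 (90.9 CPM) and ERRα-/- insulin liver 1 (8.06 CPM). Acta1 was also above every saline liver in these 3, at 0.857, 32.7 and 2.40 CPM. The part of skeletal muscle tissue in those livers was not tested.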

How the results depend on the processing

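The number of genes called in muscle, 639 with all 8 samples, was 1071 with no filter on low counts and 1013 with all 16 muscle and liver samples in the fit. Leaving out each muscle in turn gave 378 to 2506, the highest without ERRα3SA muscle 1. With that muscle left out, DESeq2 gave 2453, edgeR with the size factors of DESeq2 2526, and leaving out muscle 4 as well 2597. The number of members called was 2 of 10 with all 8 muscles, where 4.54% of 14081 genes were. It ran from 0 to 4 when each muscle was left out in turn, where 2.64 to 17.4% of genes were called. With muscle 1 left out, it was 4 with DESeq2, where 2453 of 14363 genes were called. It was 4 with the size factors of DESeq2 (2526 of 14363 genes) and 4 without muscle 4 (2597 of 14586), also with muscle 1 left out. In liver, 651 genes were called, 1050 with no filter and 507 to 892 when each liver was left out in turn. The cause was not tested.

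With replicate number as a block, as if equal numbers were paired samples, 334 genes and 1 member were called in muscle. With the block and without ERRα3SA muscle 1, 2454 genes and 4 members were called. Tnnc2 lost its call with the block and all 8 muscles, at 1.23. After each group's mean was taken off, samples of equal number in the 2 genotypes had correlations of -0.218, 0.0284, -0.0695 and 0.0308. Samples of unequal number were at -0.130 to 0.185. With so few samples in a group, these values cannot tell whether equal numbers mark paired littermates.

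The mean slow shares moved with the way length was taken. With the union of exons as length, the share of Myh7 in WT muscle was 1.13%, and that of Tnnt1 was 1.29% in WT and 1.27% in ERRα3SA muscle. Of plain counts, the share of Tnni1 was 2.61% in WT and 1.63% in ERRα3SA muscle. With each muscle left out in turn, the mean share of Tnni1 in ERRα3SA muscle ran from 0.497 to 0.854%.

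Over 31 named genes and 19 alternatives, 589 values were compared with those of all 8 muscles. Of these, 458 kept their direction and their side of the call, 65 gained a call, 7 lost a call and 59 changed direction. Among 217 values from alternatives that kept all 8 muscles, 4 changed direction. These were Myh7, at 0.0081 with DESeq2 and 0.0080 with its size factors, and Tpm3, at -0.23, and Mef2c, at -0.025, with the replicate block.

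The other changes of direction left out a muscle. Over single muscles left out, the log2 fold change ran from -0.48 to 0.20 for Myh7, -0.091 to 0.40 for Tnnt1, -0.12 to 0.47 for Myh2, -0.23 to 0.42 for Myh4, -0.64 to 0.31 for Tpm3, -0.28 to 0.074 for Mybpc1, -0.24 to 0.25 for Myl1 and -0.36 to 0.18 for Tpm1. For the rest it ran from -1.02 to 0.75 for Myh3, -0.36 to 0.022 for Ppargc1a, -0.29 to 0.24 for Mef2c, -0.087 to 0.14 for Tbx15, -0.33 to 0.064 for Tead1 and -0.10 to 2.12 for Runx1.

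Without ERRα3SA muscle 1, DESeq2 and edgeR with its size factors gave the same rounded values. Both gave -0.10 for Tnnt1, -0.13 for Myh2, -0.24 for Myh4, -0.0045 for Tnnt3, -0.65 for Tpm3, -0.25 for Myl1, -0.30 for Mef2c and -0.10 for Tbx15. The replicate block without that muscle gave -0.077 for Tnnt1, -0.15 for Myh2, -0.030 for Myh1, -0.27 for Myh4, -0.010 for Tnnt3, -0.72 for Tpm3, -0.29 for Myl1, -0.34 for Mef2c and -0.094 for Tbx15. Without ERRα3SA muscles 1 and 4, Tnnt1 was at -0.16, Myh2 at -0.062, Myh1 at -0.041, Myh4 at -0.11, Tpm3 at -0.86, Myl1 at -0.16, Mef2c at -0.20 and Runx1 at -0.0061, while Pvalb was at 0.085. The cause of these changes was not tested.

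With 4 muscles a genotype, calls near the threshold moved with single samples, as the values of Tnni1 and Tnnc2 show. Tnnc2 had 6 to 67 counts a muscle, so its level is the least precise of the members. The proportion of gastrocnemius and soleus in each sample is not given, and its part in the slow and fast levels was not tested.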
